A study of Mus musculus with 2 samples.

Results

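The miR-7 family in the mouse consists of 3 hairpin genes, Mir7-1, Mir7-2 and Mir7b, and is described here in 2 microRNA-seq libraries of neonatal cortex. The members were chosen by name, as the rows of the deposited count tables whose identifiers are these genes in the GENCODE M21 annotation, and they are 3 of 2202 counted microRNA (miRNA) genes. They were proposed with their counts in these same libraries known, so the levels and ratios below are descriptions and carry no test. The tissue was the left cerebral cortex, taken at an age of 4 days from males of the strain B6CASTF1/J, F1 animals of a cross between C57BL/6J and CAST/EiJ, and RNA under 30 nt was selected from total RNA. There was 1 group with 2 libraries, labelled biological replicates 1 and 2 and called library 1 and library 2 below. The labels number the males 3 and 4 but give both the same donor entry, so the spread between the libraries may or may not be a spread between animals.

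A miRNA is cut from a hairpin precursor, and its bases 2 to 8, the seed, select the messenger RNAs that it represses. miR-7 is a deeply conserved miRNA that is enriched in neurons and in neuroendocrine cells such as those of the pituitary and the pancreatic islets. In the mammalian brain it is part of a circuit with noncoding RNAs: the circular RNA Cdr1as carries many miR-7 sites, miR-671 directs the cutting of Cdr1as, and the long noncoding RNA Cyrano triggers the decay of miR-7. Mir7-1 lies in an intron of Hnrnpk, a gene for an RNA-binding protein found in most cell types, and the processing of its transcript is known to be held back in non-neural cells.

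The mature sequences decide which reads can be given to a gene, so they are shown first, 5′ to 3′, from RefSeq (GRCm38.p6), with the seed in capitals. All 3 members were found in RefSeq, and each hairpin was identical in sequence to the counted GENCODE gene.
miR-7a-5p (Mir7-1 and Mir7-2): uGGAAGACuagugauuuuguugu
miR-7b-5p (Mir7b): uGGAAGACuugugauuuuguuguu
miR-7a-1-3p (Mir7-1): cAACAAAUcacagucugccaua
miR-7a-2-3p (Mir7-2): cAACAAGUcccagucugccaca
miR-7b-3p (Mir7b): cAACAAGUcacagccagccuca
The 5p arm, the main strand of miR-7, had the same seed in all 3 members and in no other gene of the RefSeq table. miR-7a-5p is encoded by both Mir7-1 and Mir7-2. It is among the 54 of 1674 distinct mature sequences in that table (3.23%) that are encoded by 2 or more genes. miR-7b-5p differed from miR-7a-5p by 1 substitution over the 23 bases compared, A10U, counted from 1 at the 5′ end of miR-7a-5p and outside the seed. The 3p arms all differed: miR-7a-1-3p and miR-7a-2-3p by 3 substitutions (A7G, A10C and U21C), of which the first lies in the seed, and miR-7a-2-3p and miR-7b-3p by 4 (C10A, U14C, U16A and A20U), all outside it. miR-7a-2-3p and miR-7b-3p therefore shared a 3p seed, which miR-7a-1-3p lacked.

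The whole hairpins show where the copies can be told apart, with both annotated arms in capitals.
Mir7-1: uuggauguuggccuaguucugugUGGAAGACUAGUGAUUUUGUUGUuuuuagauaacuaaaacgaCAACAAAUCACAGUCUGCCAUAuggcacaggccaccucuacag
Mir7-2: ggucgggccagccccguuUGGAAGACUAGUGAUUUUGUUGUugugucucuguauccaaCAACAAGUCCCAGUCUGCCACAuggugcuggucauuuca
Mir7b: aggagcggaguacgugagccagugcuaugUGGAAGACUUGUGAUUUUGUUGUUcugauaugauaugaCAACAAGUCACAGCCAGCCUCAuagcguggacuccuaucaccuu
Mir7-1 and Mir7-2 shared 1 exact stretch of 24 nt, from position 24 to 47 of the first and 19 to 42 of the second, which begins at the first base of miR-7a-5p. A read of 18 to 24 nt that starts there is the same for both genes, and at 25 nt the copies differ. Reads of 18 to 26 nt that start at the first base of either arm of Mir7b, or of the 3p arms of Mir7-1 and Mir7-2, occurred in no other counted miRNA gene. Outside the family, the longest stretch shared with any of 2199 other miRNA genes was 13 nt for Mir7-1, 13 nt for Mir7-2 and 12 nt for Mir7b, each with Mir338.

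**Figure D1:**
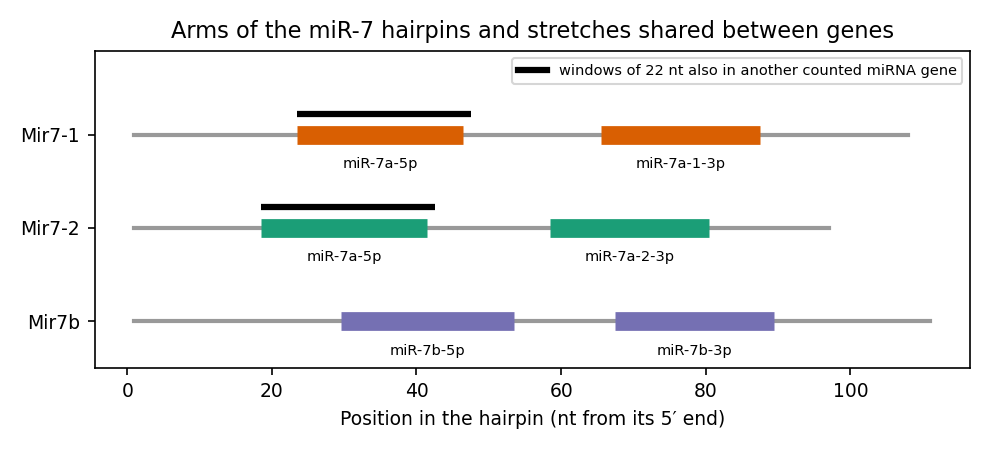
Position along each miR-7 hairpin in nt from its 5′ end, with the annotated arms as coloured blocks and, as a black bar, the stretch covered by windows of 22 nt that also occur in another counted miRNA gene. Of the windows, 3 of 87 in Mir7-1 and 3 of 76 in Mir7-2 were shared, all over miR-7a-5p, and 0 of 90 in Mir7b.

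The deposited tables hold reads placed at several sites as an entry of their own, outside every gene. It made up 46.1% of reads in library 1 and 39.8% in library 2, and how many of these reads were miR-7a-5p cannot be told from the tables. The counts of Mir7-1 and Mir7-2 below therefore come from the 3p arm, from longer reads or from other parts of the hairpin, insofar as reads of 18 to 24 nt from miR-7a-5p were placed at both genes. The count of Mir7b can hold both of its arms. Mir7-1 and Mir7-2 are alike in this respect and can be set against each other more directly than either against Mir7b. Their 3p arms and the bases after the shared stretch still differ, and the part of this in their ratio was not tested. The number of mismatches allowed in placing reads is not given in the sources used here, and reads of miR-7a-5p and miR-7b-5p differ by a single base.

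The 3 genes lie on different chromosomes (mm10, GENCODE M21). Mir7-1 (ENSMUSG00000065434.1) is at chr13:58392779-58392886 on the minus strand, in the same direction as its host Hnrnpk. In 12 of 34 annotated Hnrnpk transcripts it lies in the last intron, 309 bp past the upstream exon and 302 or 362 bp before the final one, and the remaining 22 transcripts do not span it. Mir7-2 (ENSMUSG00000065609.1, chr7:78888277-78888373, plus strand) lies in no other annotated gene, 7480 bp before Aen, a gene for an apoptosis-enhancing nuclease. Mir7b (ENSMUSG00000065491.1, chr17:56242988-56243098, plus strand) also lies between genes, 182 bp after the end of the noncoding RNA AC026385.1 on the same strand and 13711 bp before Fem1a.

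The libraries differed far beyond the family, and this bears on every ratio below. Own-strand counts over miRNA genes totalled 2999032 and 3577964. Skeletal and heart muscle miRNAs, markers foreign to cortex, took 0.00730% of counts in library 1, where 6 of 9 were at 0, and 15.7% in library 2, where 1 was at 0. Neuron-enriched miRNAs, the defining markers of the labelled tissue among the lists, took 4.49% in library 1 and 0.133% in library 2. Of these 19 genes, 0 were at 0 in library 1 and 4 in library 2. Those 4, the Mir124a genes and Mir9-2, also had few counts in library 1, too few over both libraries to be tested below. The difference is therefore read from the shares of counts and not from those 4 genes. Library 2 is thus poor in cortex markers for a library labelled cortex, and each direction below is between libraries as labelled. The part of this difference in tissue markers in the miR-7 results was not tested. In such bulk samples, fewer cells of a type and less RNA per cell cannot be told apart.

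Mir7b had the most assigned counts of the members in library 1 and was nearly missing from library 2. It had 2743 counts in library 1, or 915 CPM (counts scaled to the own-strand total of the library; exact 95% Poisson interval 881 to 950), and 7 counts in library 2, or 1.96 CPM (0.787 to 4.03). It was gene 99 of 2202 by level in library 1 and 327 in library 2. The interval of the level in library 2 includes the 0.838 CPM that a count of 0 would allow there. The mean was 458 CPM ± 645 (SD, n = 2), a spread larger than the mean. Intervals cover counting error only, and reads amplified by PCR without molecular identifiers can make even that too narrow.

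Mir7-2, the second gene between protein-coding loci, was at a lower level than Mir7b in library 1 and was also nearly missing from library 2. It had 435 counts in library 1, or 145 CPM (132 to 159), and 1 count in library 2, or 0.279 CPM (0.00708 to 1.56). The single count lies under the limit that a count of 0 allows, so Mir7-2 was not detectable above that limit in library 2. Its mean was 72.7 CPM ± 102 (SD, n = 2), and its rank moved from 184 to 484.

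Mir7-1, the copy inside Hnrnpk, was the member that both libraries held in countable numbers. It had 300 counts in library 1, or 100.03 CPM (89.0 to 112), and 75 counts in library 2, or 20.96 CPM (16.5 to 26.3). The mean was 60.5 CPM ± 55.9 (SD, n = 2), and the rank was 205 in library 1 and 236 in library 2. No read was counted on the opposite strand of any member in either library, and unstranded counting gave all 3 the same counts.

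**Figure D2:**
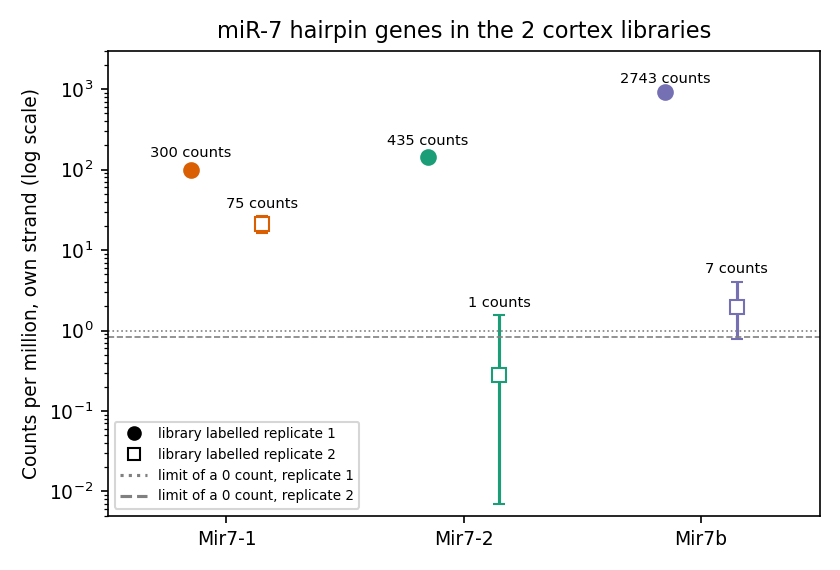
Own-strand CPM on a log scale for each miR-7 gene in library 1 (filled circles) and library 2 (open squares), with exact 95% Poisson intervals, the raw counts, and the CPM that a count of 0 allows in each library as grey lines. Mir7-1 was at 100.03 and 20.96 CPM, while Mir7-2 and Mir7b went from 145 and 915 CPM in library 1 to 0.279 and 1.96 CPM in library 2.

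Within library 1 the order of the assigned levels was Mir7b, Mir7-2, Mir7-1, and no intervals overlapped. The counts of Mir7b can hold both of its arms, while miR-7a-5p reads placed at several sites are outside those of Mir7-1 and Mir7-2. The part of this in the ratios to Mir7b was not tested. Mir7b had 9.14 times the counts of Mir7-1 (exact Clopper-Pearson 95% interval 8.11 to 10.3) and 6.31 times those of Mir7-2 (5.70 to 6.99). Between the copies that encode the same 5p arm, Mir7-2 had 1.45 times the counts of Mir7-1 (1.25 to 1.69). Per 100 nt of annotated gene the levels were 824 CPM for Mir7b, 150 CPM for Mir7-2 and 92.6 CPM for Mir7-1, in the same order.

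In library 2 the order became Mir7-1, Mir7b, Mir7-2. There Mir7-1 had 10.7 times the counts of Mir7b (interval 4.95 to 27.6) and 75 times those of Mir7-2 (13.1 to 3001). Mir7b and Mir7-2 did not differ beyond counting error, with a ratio of 7.0 (0.899 to 315). Per 100 nt the levels were 19.4 CPM for Mir7-1, 1.76 CPM for Mir7b and 0.288 CPM for Mir7-2.

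As a share of the reads given to the family, Mir7b held 78.9% (77.5 to 80.2), Mir7-2 12.5% (11.4 to 13.7) and Mir7-1 8.63% (7.71 to 9.61) of 3478 counts in library 1. The Hnrnpk copy held 90.4% (81.9 to 95.7) of 83 counts in library 2, with 8.43% (3.46 to 16.6) for Mir7b and 1.20% (0.0305 to 6.53) for Mir7-2. The leading gene of the family was thus a different one in each library. With reads of miR-7a-5p outside the gene counts, these are shares of assignable reads and not of miR-7 molecules.

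**Figure D3:**
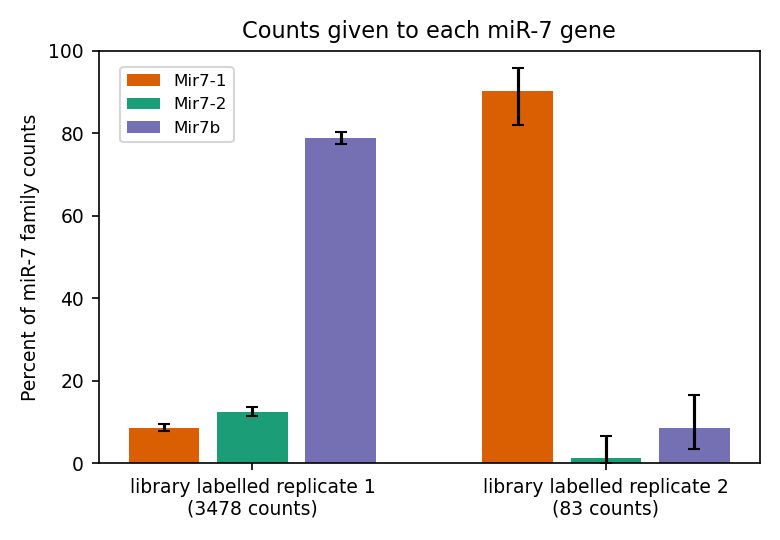
Percent of the counts given to the 3 miR-7 genes that fell on each gene, by library, with exact Clopper-Pearson 95% intervals. Mir7b held 78.9% in library 1 and 8.43% in library 2, while Mir7-1 held 8.63% and 90.4%.

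The ratio of 2 loci within a library does not depend on how the libraries are scaled. From library 1 to library 2 the count ratio of Mir7-1 to Mir7b was 98.0 times higher, with a conditional exact 95% interval of 44.6 to 254. The ratio of Mir7-1 to Mir7-2 was 109 times higher (18.6 to 4362), an interval set by the single count of Mir7-2. Mir7-2 against Mir7b changed by a factor of 0.901 (0.0199 to 7.04), so these genes could not be separated at this depth, and the wide interval does not show that they moved alike.

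Scaled to total counts, all members were lower in library 2. The Mir7b level was 468 times lower (interval 227 to 1164), the Mir7-2 level 519 times lower (92.7 to 20545) and the Mir7-1 level 4.77 times lower (3.69 to 6.23). The counts given to the family summed to 1160 CPM in library 1 and 23.2 CPM in library 2, a level 49.99 times lower (40.2 to 62.9). Mir7b made up 78.9% of that sum in library 1. Reads of miR-7a-5p placed at several sites are outside it, so the fold is not one of miR-7 molecules. With a prior of 1 CPM, which draws low genes towards 0, the log2 ratios of library 2 over library 1 were -8.27 for Mir7b, -6.83 for Mir7-2 and -2.20 for Mir7-1. A 4-fold difference on that scale was passed downwards by 3 of 3 members, against 37.4% of the 463 genes with at least 10 counts summed over both libraries. The choice of the members used this contrast, so nothing is read from that count.

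Whether Mir7-1 passed 4-fold depended on the scaling, while Mir7-2 and Mir7b passed under both scalings given here. The median log2 ratio of the 463 genes was -1.35 with total counts and -0.26 with TMM, the trimmed-mean scaling of edgeR. For an abundant gene TMM raised the log2 ratio by 1.40. With TMM the log2 ratio of Mir7-1 was -0.83, or 1.78 times lower, and it no longer passed 4-fold. Mir7b was at -7.07 and Mir7-2 at -5.95, so 2 of 3 members passed, against 19.4% of all tested genes. The choice of the members used this contrast, and Mir7-2 and Mir7b passed the count filter only through library 1, where they are high. Nothing is therefore read from that count or from the ranks below. On the total-count scale Mir7-1 lay 0.85 below the median gene, Mir7-2 5.48 below and Mir7b 6.92 below. Ranked from the lowest ratio of 463, Mir7b was at place 3 after Mir92b and Mir137, Mir7-2 was at place 10 and Mir7-1 at place 158.

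**Figure D4:**
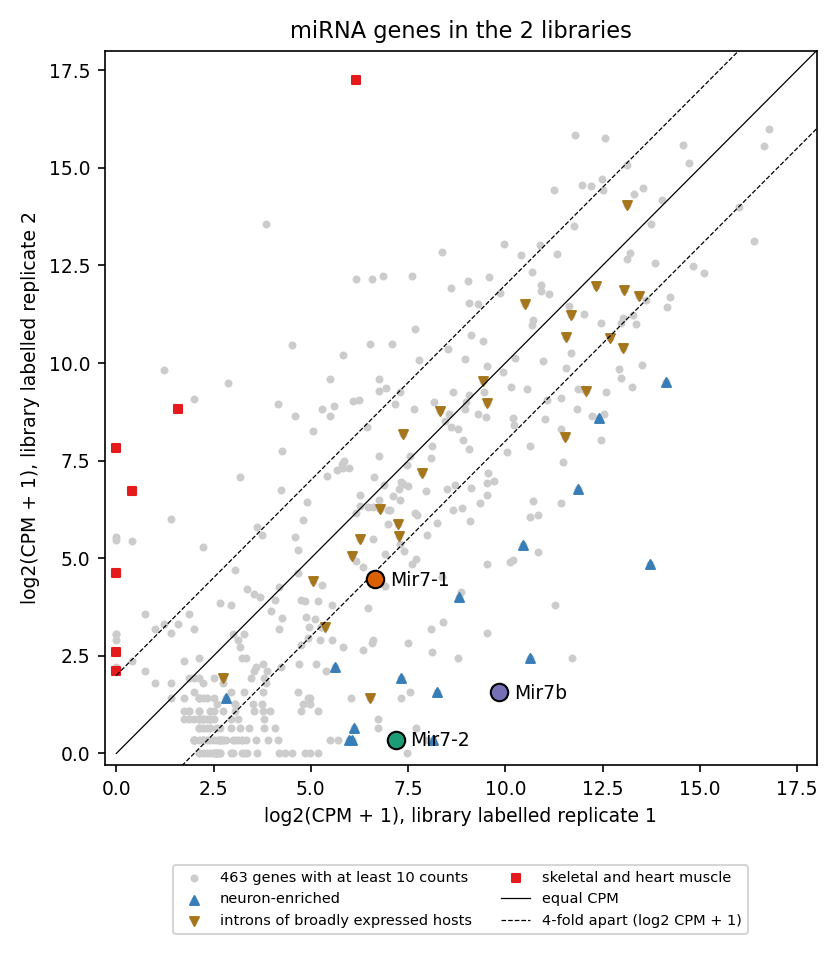
log2(CPM + 1) of the 463 tested miRNA genes in library 1 (x axis) and library 2 (y axis), with the miR-7 genes as large points. Neuron-enriched miRNAs, muscle miRNAs and those listed for broadly expressed hosts are in colour. The legend names the host list by introns, but some of its genes lie over exons or in no coding host. Mir7b and Mir7-2 lie near the floor of library 2 among neuron-enriched genes and genes of no list, and Mir7-1 lies at the 4-fold line.

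The position of Mir7-1 in a broadly expressed gene was set beside 25 miRNAs listed for such hosts, of which 23 lie inside a protein-coding gene on the same strand in GENCODE M21. The Hnrnpk messenger RNA itself was not measured. All 25 were tested, 6 were at least 4-fold lower in library 2 (37.4% of all tested genes were) and 0 at least 4-fold higher (13.8%). Their log2 ratios ran from -5.10 to 1.02 with a median of -0.81 (0.53 with TMM, where 2 were 4-fold lower and 3 higher, beside 19.4% and 23.8% of all tested genes). Mir7-1, at -2.20, was lower than 21 of them and higher than 4, while 0 of 25 were as low as Mir7-2 or Mir7b. Mir26b, in an intron of the phosphatase gene Ctdsp1, had 27061 and 60616 counts, and Mir151, in an intron of the kinase gene Ptk2, had 33268 and 12094.

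Close neighbours of Mir7-1 in this list were Mir33, in an intron of the sterol regulator Srebf2, with 121 and 30 counts, and Mir361, in an intron of Chm, with 19660 and 5687. The lowest of the list, Mir26a-1 in an intron of Ctdspl, had 272 and 6 counts and a log2 ratio of -5.10, so the level was not even for every listed host. These 3 were named after their values were seen. Over all tested genes outside the family, 42.2% of 249 genes inside a protein-coding gene on the same strand were at least 4-fold lower, against 30.8% of 211 others, and 7.23% against 21.8% were at least 4-fold higher. Their median log2 ratios were -1.64 and -0.47 (-0.63 and 0.90 with TMM).

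The neuron-enriched list is the nearest in ratio to Mir7b and Mir7-2. Of its 19 genes 15 were tested, and 14 of these were at least 4-fold lower in library 2 under both scalings and 0 higher. Over all tested genes 37.4% were lower and 13.8% higher (19.4% and 23.8% with TMM). Some genes of the list passed the count filter only through library 1, where they are high. The log2 ratios of the list ran from -8.87 to -1.39 with a median of -5.38 (-4.14 with TMM). Mir7b and Mir7-2 lay within that range and below its median, and Mir7-1 lay within it and above. Mir128-1, a regulator of neuronal excitability, had 53592 and 2623 counts, and Mir137, a miRNA of neuronal maturation, had 40242 and 99. Read loss to several sites touches this list too, since its Mir124a and Mir9 members have copies.

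The miRNAs of neuroendocrine and related epithelial cells, which share miR-7 as a marker in pituitary and islets, did not have that pattern. Of 10 tested genes 0 were at least 4-fold lower and 1 at least 4-fold higher, beside 37.4% and 13.8% of all tested genes. With TMM 0 were 4-fold lower and 2 higher, beside 19.4% and 23.8%. Their log2 ratios ran from -1.65 to 2.84 with total counts, with a median of -0.05 (1.34 with TMM). Mir200c, an epithelial miRNA, had 826 and 835 counts, and Mir429 of the same family had 525 and 591. With total counts every gene of that list thus had a higher ratio than Mir7-1, the highest member of the miR-7 family.

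Mir671, the only other miRNA of the Cdr1as circuit, lies in an exon of Chpf2 (chr5:24592114-24592211, plus strand). It had 1959 counts in library 1, or 653 CPM, and 302 counts in library 2, or 84.4 CPM, a level 7.74 times lower (interval 6.85 to 8.76). Its log2 ratio was -2.94 with total counts and -1.54 with TMM, lower than Mir7-1 and higher than Mir7-2 and Mir7b. Cdr1as and Cyrano were not measured.

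The other marker lists are given with total counts, where 13.8% of the 463 tested genes were at least 4-fold higher and 37.4% lower (23.8% and 19.4% with TMM). Hox cluster miRNAs, which mark trunk tissue, were at least 4-fold higher in 6 of 6 (median 6.53; Mir196b had 40 and 42961 counts and Mir10b 576 and 17140). Muscle miRNAs were so in 7 of 7 tested genes, of 9 listed (median 6.31). Mir206 had 212 and 559242 counts and Mir499 6 and 1625. Of the tested muscle genes only Mir206 reached 10 counts in library 1, and of the Hox genes only Mir10a, Mir10b and Mir196b did. The others passed the count filter only with the counts of library 2, where they are high, which favoured their direction in advance. For those at 0 counts in library 1 the filter set the direction. Vascular miRNAs were 4-fold higher in 1 of 3 and lower in 0 (median 0.93, with 35984 and 81797 counts for endothelial Mir126a and 14193 and 84860 for Mir143). Red blood cell miRNAs were higher in 1 of 4 and lower in 0 (median 1.36, with 86 and 305 counts for Mir486, which muscle also makes, and 34 and 196 for Mir451a). With TMM 2 of 3 vascular and 3 of 4 red blood cell miRNAs were 4-fold higher, and the Hox and muscle counts were the same.

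Among brain support and immune cells, microglia and leukocyte miRNAs were at least 4-fold lower in 1 of 5 and higher in 0 (median 0.34, with 1592 and 786 counts for Mir146 and 1208 and 267 for Mir150). Oligodendrocyte miRNAs were lower in 1 of 3 (median -1.88; Mir338 had 1491 and 1610 counts and Mir219a-2 314 and 3). Choroid plexus and ependyma miRNAs were lower in 3 of 5 and higher in 1 (median -2.89; Mir449a had 3306 and 104 counts and Mir204 2200 and 350). With TMM the counts of 4-fold lower genes were 0 of 5, 1 of 3 and 1 of 5, 2 of 5 microglia and leukocyte genes were 4-fold higher, and no median of these lists changed sign.

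**Figure D5:**
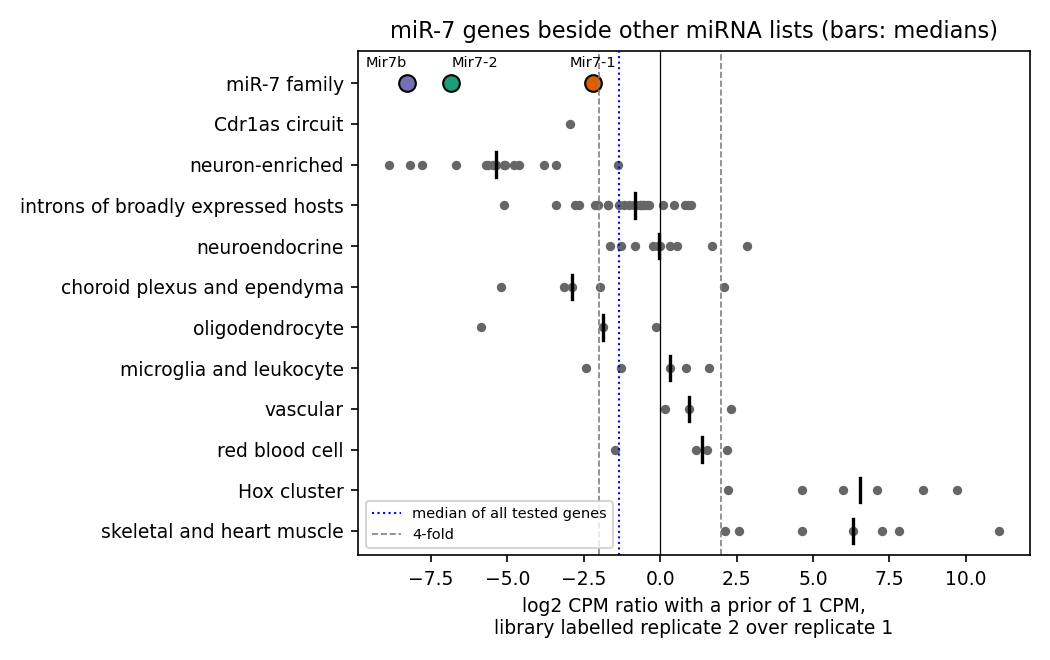
log2 CPM ratio of library 2 over library 1 (total counts, prior of 1 CPM) for each tested gene of every list, with bars at list medians, the median of all tested genes as a dotted line and 4-fold as dashed lines. Mir7b (-8.27) and Mir7-2 (-6.83) lie below the neuron-enriched median of -5.38, and Mir7-1 (-2.20) lies just past the 4-fold line.

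The genes nearest to each member were found by Euclidean distance over log2(CPM + 1) in the 2 libraries, among 460 tested genes outside the family. With only 2 libraries such a match says that both levels are alike, and nothing more. Genes near to Mir7-1 were Mir701 in an intron of Ttc28, with 238 and 94 counts (distance 0.45), and Mir29c, which lies in the noncoding gene A330023F24Rik, with 212 and 105 (0.68).

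Mir7-2 had 2 near matches at 1 count in library 2. Mir3059, in an intron of Mgat4c, had 414 and 1 counts (distance 0.071), and Gm23450, over an exon of Cacng8, a gene for a subunit of AMPA receptor complexes, had 394 and 1 (0.14). The third was Mir135a-1, with 527 counts and a count of 0 (0.45). Mir7b had no match as close. Mir383, in an intron of Sgcz and itself on the neuron-enriched list, had 4802 and 16 counts (1.20), Mir135b, in introns of Lemd1 and AC124108.1, had 1328 and 16 (1.37), and Mir490, in an intron of the acetylcholine receptor gene Chrm2, had 2216 and 27 (1.56).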

How the data were processed

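The authors deposited raw read counts per miRNA gene for each library, in 3 columns (either strand, own strand and opposite strand, by their layout), on mm10 with GENCODE M21, per the file headers. Aligner and counter: not given in the sources used here. Entries without a gene (reads unplaced, at several sites or outside miRNA genes) stayed out of library sizes. Library 1 held 10029659 reads, of which these entries took 18.4%, 46.1% and 5.55%, and library 2 held 6800067, of which they took 6.11%, 39.8% and 1.47%. All 2202 identifiers matched GENCODE M21.

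Own-strand counts were scaled to the own-strand total as CPM. Ratios are library 2 over library 1 unless worded as lower; folds and intervals carry no prior, and log2 ratios and 4-fold counts carry 1 CPM, over genes with at least 10 counts summed. TMM factors were 1.63 and 0.615. A count of 0 allows 3 counts, or 1.00 and 0.838 CPM. With 2 libraries of 1 group, edgeR's quasi-likelihood test has no replicated arms and no test was run. Members and 12 gene lists were chosen with earlier results of these data known. Named genes are the members, their 3 nearest genes each (1 gene near Mir7-1 is not reported here), Mir671 and the 2 most abundant genes of each list; Mir33, Mir361, Mir26a-1 and Mir92b were named after their values were seen. Listed names that are no GENCODE symbol were matched through RefSeq synonyms (Mir486a to Mir486, Mir486b to Mir3107, Mir146a to Mir146), and Mir142hg, a host gene, was not matched. Shared sequence was searched in GENCODE transcripts and not in the whole genome. Values were computed in Python 3.11.15 (pandas 2.3.3, scipy 1.17.1, numpy 2.4.6), figures with matplotlib 3.10.9, and scaling factors with DESeq2 1.42.0 and edgeR 4.0.16 under R 4.3.3.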

Additional observations from a re-analysis of the deposited data

How the results depend on the processing

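Alternatives were unstranded counts, TMM, DESeq2 size factors, all reads of the library as the total, removal of the most abundant gene of each library, a prior of 0.1 CPM, other filters and each library alone. DESeq2 size factors over genes above 0 in both libraries were added after seeing the data. All 3 members were lower in library 2 under each of these settings that gives a ratio, which filters and single libraries do not. The log2 ratio of Mir7-1 was -2.20, and became -0.83 with TMM, -0.66 with DESeq2 poscounts factors, -0.69 with DESeq2 ratio factors and -1.36 with all reads. For Mir7b it was -8.27, and became -7.07, -6.92, -6.94 and -7.08 in the same order. Mir7-2, at -6.83, became -5.27 with all reads and -8.58 with a prior of 0.1 CPM. The 173 genes at least 4-fold lower became 90 with TMM, 80 and 82 with DESeq2 (poscounts, ratio) and 108 with at least 100 counts summed. The 64 genes at least 4-fold higher became 110, 113 and 112 with these 3 scalings. The share of lower and higher genes thus rests on the scaling.

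As a mean over both libraries, the log2 ratio of Mir7b to Mir7-1 was 0.14, and -0.082 with a prior of 0.1 CPM, so this mean has no stable sign. Leaving out 1 library gave -2.89 to 3.18. For Mir7-1 to Mir7-2 the mean was 1.78, and leaving out 1 library gave -0.53 to 4.10. The order of the loci therefore differs between the libraries, as reported. Each library alone put Mir7b between 1.96 and 915 CPM, Mir7-2 between 0.279 and 145 CPM and Mir7-1 between 20.96 and 100.03 CPM. No paired analysis was possible because the series has 1 group. The counts of 1 and 7 for Mir7-2 and Mir7b limit every ratio that holds them.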
